A study of Mus musculus with 12 samples.

Results

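The cells described here are thymic γδ T cells that carried transcripts of both Trgv6 and Trdv4. These are genes of a γ and a δ variable segment of the γδ T cell receptor, and Trgv6 is that of the Vγ6 chain. They were chosen in the 4 libraries of sorted thymic γδ T cells as cells with at least 500 unique molecular identifiers (UMIs, each marking 1 captured transcript), at least 1 UMI of Trgv6 and at least 1 UMI of Trdv4, and without UMIs of both Mki67 and Top2a, since cells with both of these proliferation genes were left out. The rule found 6274 cells among 29315 thymic γδ T cells and among 97404 cells of all 12 libraries. The counts of these 4 genes therefore chose the cells and are given below only as a description.

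Vγ6 cells belong to an early wave of γδ T cells that arises in the fetal thymus, carries a nearly invariant receptor and settles in barrier and mucosal tissues. They are programmed in the thymus to make interleukin 17, under transcription factors such as c-Maf, and are then called γδT17 cells. GFI1 is a zinc finger repressor that recruits histone demethylases and deacetylases and acts at several steps of early T cell development.

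The study compared adult mice on a C57BL6/J background, at least 5 weeks old, with a germline GFI1 knockout (KO) and their wild-type (WT) counterparts. Single-cell 3′ RNA libraries were made from sorted CD8neg CD4neg thymic γδ T cells, from splenic γδ T cells and from thymic DN1-DN2-DN3 cells, which are early double-negative thymocytes, after partial depletion of other lineages. KO and WT cells were marked with different hashtag antibodies and run together in 2 pools per sort, which gave 2 KO and 2 WT libraries for each. Nothing states how many animals each library holds, so the p-values measure the spread between libraries only. A germline knockout lacks GFI1 in every tissue, so effects that arise in the γδ T cells and in other cells cannot be told apart.

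Coding sequences of the V segments behind the rule are shown here because the cells are named by them. Which part of a segment the counted reads cover was not examined. The study states that its 3′ method captures variable regions unreliably, so a cell without a UMI may still carry the segment. Each line gives the stretch of 150 bases of the segment's coding sequence, and capitals mark the bases that differ from the most similar other segment in a global alignment. The stretches lie at chr13:19190780-19190929 and chr14:54075366-54075515 of the mouse genome build GRCm38, both on the plus strand and in the coding exon of their V segment. The counts come from an alignment to GRCm39, and no coordinate was carried over.

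Trgv6: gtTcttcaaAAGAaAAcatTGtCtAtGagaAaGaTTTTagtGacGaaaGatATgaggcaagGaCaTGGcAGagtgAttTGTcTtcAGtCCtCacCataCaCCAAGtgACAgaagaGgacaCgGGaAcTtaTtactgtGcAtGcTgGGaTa

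Trdv4: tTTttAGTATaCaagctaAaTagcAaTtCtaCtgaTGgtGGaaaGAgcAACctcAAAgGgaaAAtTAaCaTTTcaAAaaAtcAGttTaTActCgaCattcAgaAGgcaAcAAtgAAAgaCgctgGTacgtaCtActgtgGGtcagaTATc

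Trgv6 was most similar to Trgv4, with 54.42% of aligned coding bases identical, and Trdv4 to Trdv2-2, with 54.1%. Trgv6 shared no run of 31 bases with Trgv1 to Trgv5 or Trgv7, and Trdv4 none with Trdv1, Trdv2-1, Trdv2-2 or Trdv5. Other segments were not compared. The longest identical runs shared with another segment had 8 to 14 bases for Trgv6 and 5 to 8 for Trdv4, and the capitals fall along the whole length of both stretches.

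The Trgv6 Trdv4 cells made up a large share of KO thymic γδ T cells and a very small share of WT ones. They were 2751 of 6811 cells (40.4%, exact 95% interval 39.2 to 41.6%) in KO library 1 and 3452 of 7640 cells (45.2%, 44.1 to 46.3%) in KO library 2. They were 31 of 6855 cells (0.452%, 0.307 to 0.641%) in WT library 1 and 40 of 8009 cells (0.499%, 0.357 to 0.679%) in WT library 2. Both KO libraries lay far above both WT libraries, but the rule defines this share, so it carries no test, and the intervals cover counting error only. When every cell was thinned to 3000 UMIs the shares were 28.5% and 28.6% in KO and 0.256% and 0.268% in WT. The same rule found 4324 and 6631 cells (55.3% and 56.8%) in the KO spleen and 264 and 263 cells (3.37% and 2.36%) in the WT spleen. Among early thymocytes it found 4 and 3 cells in KO and 0 of 7279 and 0 of 7618 in WT, which allows shares of up to 0.0412% and 0.0394% (3 cells of the total).

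**Figure D1:**
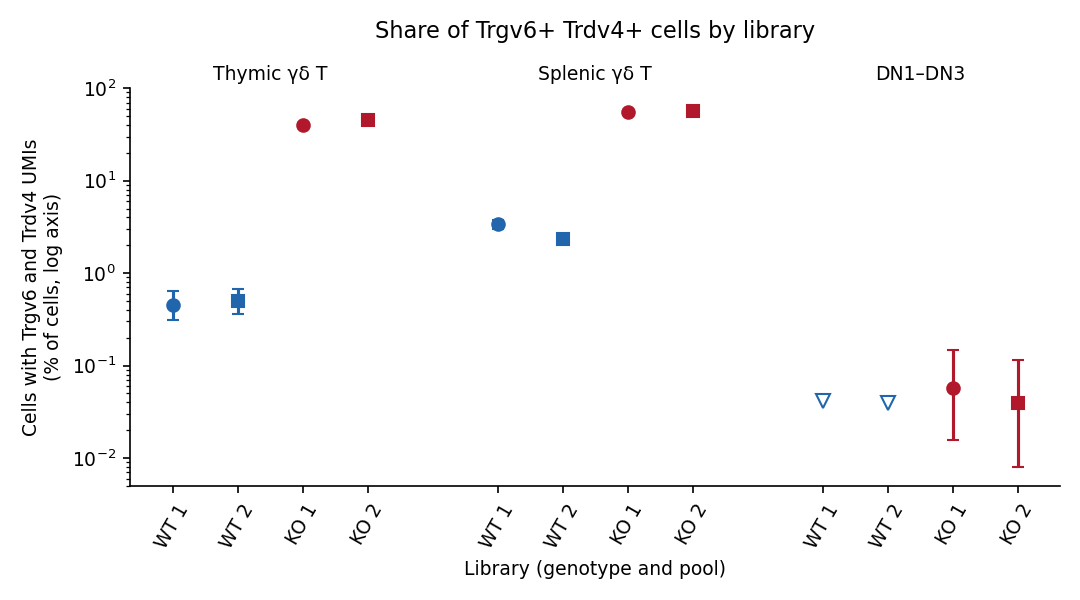
Share of cells with UMIs of both Trgv6 and Trdv4 and not both proliferation genes, in percent of cells on a log axis, for each library of the 3 sorts (circles, pool 1; squares, pool 2; bars, exact 95% binomial intervals; open triangles, share of 3 cells where no cell was found). The KO thymic libraries stood at 40.4% and 45.2% and the WT ones at 0.452% and 0.499%.

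At the threshold, 212 and 324 KO cells and 8 and 7 WT cells held exactly 1 UMI of each segment, while 1377 and 1582 KO cells and 10 and 12 WT cells held at least 2 UMIs of each. Just outside it, 306 and 405 KO cells held Trgv6 without Trdv4, and 1297 and 2076 held Trdv4 without Trgv6. In WT these were 97 and 130 cells and 174 and 228 cells. Trgv6 stood at 337 and 309 CPM in the chosen KO cells and 271 and 213 CPM in the chosen WT cells, and Trdv4 at 729 and 631 CPM and 496 and 433 CPM. Cells with both segments that were left out for proliferation numbered 78 and 58 in KO and 2 and 2 in WT.

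The 4 thymic libraries held 42379087 to 71745715 UMIs, and the summed Trgv6 Trdv4 cells held 17005102 and 21835973 UMIs in KO but 213680 and 281524 in WT, where 1 UMI equals 4.68 and 3.55 CPM, the scale on which the UMIs of a sum add up to 1000000. Median depth per Trgv6 Trdv4 cell was 5816 and 6038 UMIs in KO and 6906 and 6860 in WT. The hashtag of the cell's own genotype led in all but 1 of these cells. No barcode was shared between KO and WT of 1 pool. Both follow from the split by hashtag and do not check the genotypes. The own hashtag held 90.1% and 85.6% of hashtag UMIs in KO cells and 97.7% and 98.1% in WT cells. Summed markers of other lineages were low in the Trgv6 Trdv4 cells, at 0 to 18.7 CPM for 6 natural killer cell genes with Ncr1 at 0. The 7 B cell genes, with Pax5 at 0, summed to 48.3 and 36.9 CPM in KO and 126 and 95.9 CPM in WT. The 8 myeloid genes summed to 146 to 229 CPM, nearly all of it Cst3, with S100a8 and S100a9 at 0. The 6 genes of innate lymphoid cells summed to 140 to 206 CPM, nearly all of it Cd7, with Rxrg at 0. The 6 of DN3 thymocytes summed to 145 to 189 CPM, nearly all of it Il2ra in KO and Il2ra and Dntt in WT. In the other thymic γδ T cells the innate lymphoid list summed to 73.7 to 167 CPM and the DN3 list to 106 to 142 CPM. The 7 dendritic, 4 thymic epithelial and 5 erythroid genes each summed to at most 14.2 CPM. The 6 genes of γδ T cells, by contrast, summed to 6856 to 8954 CPM. The 6 genes of αβ T cells summed to 891 and 1051 CPM in KO and 1574 and 1998 CPM in WT, nearly all from the constant segments Trbc1 and Trbc2, and their part in the differences below was not tested.

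Gfi1 itself was read first as a check of the labels. In the Trgv6 Trdv4 cells it stood at 17.2 and 11.9 CPM in KO and 9.36 and 10.7 CPM in WT, and in the other thymic γδ T cells at 35.3 and 24.9 CPM in KO and 16.4 and 17.6 CPM in WT. The KO levels were not below the WT levels. A 3′ tag can lie outside the deleted part of a gene, so Gfi1 counts do not check the genotype labels here.

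The WT Trgv6 Trdv4 cells, although only 71, carried many surface and receptor genes of γδT17 cells, 22 of 28 in the surface and partner list, at levels above the other WT thymic γδ T cells. Scart1, a scavenger receptor of Vγ6 cells, stood at 2125 and 2710 CPM in WT Trgv6 Trdv4 cells against 194 and 185 CPM in the other WT cells. The difference was 3.72 on the log2 scale (SE 0.18, adjusted p = 6.1e-05), and the groups did not overlap. In this fit 631 genes were higher (4.86% of 12994 tested) and 423 were lower (3.26%) in the Trgv6 Trdv4 cells. No gene passed without WT library 2 and 24 passed without WT library 1, so the calls rest on both WT libraries.

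Of 31 transcription factors of γδT17 and related cells, 12 were higher and 9 lower, with a list median of 0.39 beside −0.18 over all genes tested. Maf, which encodes c-Maf, rose from 484 and 402 CPM in the other cells to 875 and 757 CPM (0.91, SE 0.15, adjusted p = 0.0089), and the call was lost at 2 or more UMIs of each segment (0.76, adjusted p = 0.083). Zbtb16, which encodes the innate-like factor PLZF, was higher by 1.88, Blk, a Src-family kinase, by 1.74, Rora by 1.49 and Id2, an inhibitor of E proteins, by 2.63. The 9 lower members were Sox4 (−1.82) and Etv5 (−1.70), which act in γδT17 development, Lef1 (−2.28), Id3 (−2.17), Tcf7 (−0.93), Gata3 (−0.72), Ikzf2, Bcl11b and Tox2, while Sox13, an early factor of the γδT17 lineage, did not pass (234 and 249 CPM against 362 and 296 CPM, adjusted p = 0.13).

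Among 26 cytokine receptors tested 10 were higher and 2 lower, led by Il23r, the receptor for IL-23, at 973 and 1112 CPM against 27.7 and 36.3 CPM (log2 difference 5.07, SE 0.46, adjusted p = 0.0017). Il1r1 was higher by 4.02, Il18r1 by 3.60 and Il7r by 2.40. Chemokine receptors that guide γδT17 cells rose too, Ccr2 by 4.07, Ccr6 by 4.17 and Cxcr6 by 3.77. Ccr9, the receptor of thymic and gut homing, fell from 1213 and 1089 CPM to 538 and 348 CPM (−1.36, SE 0.23, adjusted p = 0.011). Il17a was read at only 23.4 and 7.1 CPM against 0.9 and 1.5 CPM, and the difference did not pass (adjusted p = 0.14). Of the 10 IL-17-type cytokines and effectors tested 3 were higher, Csf2 by 4.76, Ltb by 1.06 and Furin. At 2 or more UMIs of each segment Csf2 (adjusted p = 0.091), Frmd5 (0.077) and Scart2 (0.18) did not pass.

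Of 28 surface and partner genes of γδT17 cells, 22 were higher and 1, Scart2, lower, with a list median of 3.13 beside −0.18. Besides Scart1 these included Abi3bp (295 and 323 CPM against 10.7 and 14.9 CPM, log2 difference 4.63), Serpinb1a (4.25), Tmem176a (4.19) and Tmem176b (4.14). The largest differences by the rule for named genes were those of Frmd5, Or4c12 and Clnk, an adaptor of the SLP-76 family at 866 and 1236 CPM against 14.3 and 17.9 CPM (6.08, SE 0.34, adjusted p = 0.00026). None of 23 immature thymocyte genes was higher and 8 were lower, among them Cd27, a costimulatory receptor (131 and 53.3 CPM against 407 and 385 CPM, −2.14). The 11 genes of the γδ NKT type had 3 higher members (Zbtb16, Icos and Pxdc1) and none lower, although their median was negative. Of 31 T cell receptor signal genes 3 were higher and 4 lower, the lower ones being Themis (234 and 153 CPM against 863 and 964 CPM, −2.23), Lck (−1.95), Cd5 and Nr4a1, which had 1 UMI in each library. Trgc1, the constant segment that Trgv6 is joined to, was higher (0.95) and Trgc2 lower (−0.94).

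**Figure D2:**
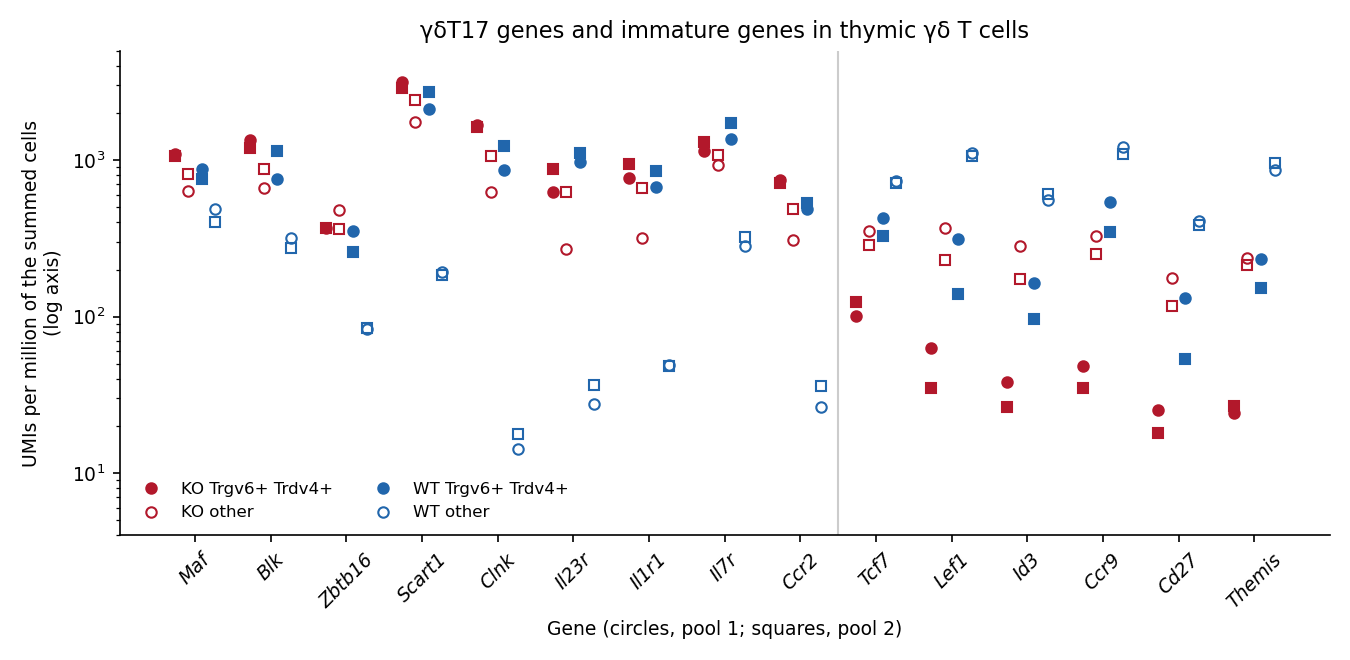
CPM (log axis) of 15 genes in the summed cells of each thymic γδ T library, with Trgv6 Trdv4 cells as filled points and other non-cycling cells as open points (red, KO; blue, WT; circles, pool 1; squares, pool 2). For Scart1 the WT Trgv6 Trdv4 cells stood at 2125 and 2710 CPM, near the KO cells, and the other WT cells at 194 and 185 CPM.

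The WT Trgv6 Trdv4 cells were not uniform, and their levels moved with the number of UMIs that had chosen them. In the 8 and 7 WT cells with exactly 1 UMI of each segment Ccr9 stood at 1456 and 1454 CPM, above the other WT thymic γδ T cells. In the 10 and 12 WT cells with at least 2 UMIs of each it stood at 15.3 and 120 CPM, against 44.1 and 30.0 CPM in the matching KO cells. Scart1 rose between these WT classes from 1028 and 1522 CPM to 2762 and 3237 CPM, and Il23r from 360 and 318 CPM to 1580 and 959 CPM. Clnk went from 480 and 409 CPM to 1120 and 1602 CPM, and Lef1 from 702 and 523 CPM to 61.4 and 98.1 CPM. In KO the classes lay closer together. Scart1 stood at 3121 and 2921 CPM in KO cells with 1 UMI of each and at 3190 and 2907 CPM in those with at least 2, and Lef1 at 61.9 and 37.8 CPM and at 62.1 and 34.5 CPM. These WT classes hold few cells, 1 UMI equals 6.86 to 22.7 CPM in them, and no test was made between the classes. KO and WT cells shared a droplet run, and KO Trgv6 Trdv4 cells held Trgv6 at 337 and 309 CPM, against 3.40 CPM in the other cells of WT library 1. The part of free RNA in the WT class with 1 UMI of each was not tested.

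**Figure D3:**
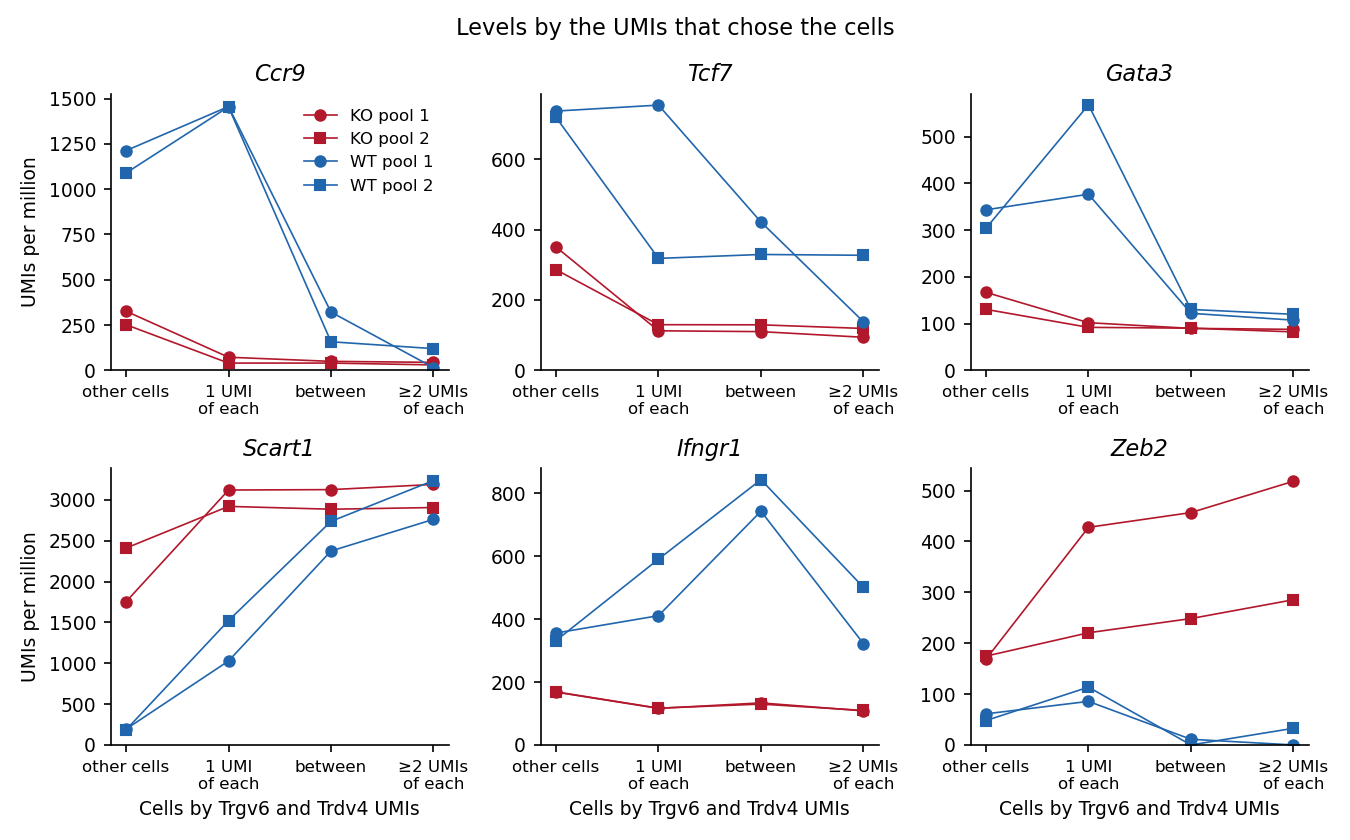
CPM of 6 genes in other thymic γδ T cells and in Trgv6 Trdv4 cells with 1 UMI of each segment, with counts between these classes, and with at least 2 UMIs of each (red, KO; blue, WT; circles, pool 1; squares, pool 2). Ccr9 dropped in WT from 1456 and 1454 CPM at 1 UMI of each to 15.3 and 120 CPM at 2 or more, while Ifngr1 and Zeb2 kept the KO and WT lines apart in every class.

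Within the KO thymus the Trgv6 Trdv4 cells were compared with all other non-cycling γδ T cells, a mixture in which 42.6% and 63.1% of cells held 1 of the segments. Of 12994 genes tested 627 were higher (4.83%) and 1321 lower (10.2%) in them than in the other KO cells, a split that became 2117 higher and 1903 lower without KO library 2. With the KO sums alone 19 were higher and 445 lower, and without WT library 1 or 2 these were 31 and 469 or 25 and 466. None of 23 immature thymocyte genes was higher and 17 were lower, with a list median of −1.49 beside −0.02 over all genes. Id3 stood at 38.0 and 26.3 CPM against 281 and 173 CPM (log2 difference −2.82, SE 0.27, adjusted p = 0.0010), and Lef1 at 63.3 and 34.8 CPM against 371 and 230 CPM (−2.61, adjusted p = 0.0043). Tcf7 (−1.48), Ccr9 (−2.79), Cd27 (−2.76), the gene of the Src-family kinase Lck (−3.21) and Themis (−3.12) were also lower. T cell receptor signal genes as a list had 3 higher and 13 lower members of 31.

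Of 11 genes of the Zbtb16-expressing γδ T cells that make IL-4, 7 were lower in KO Trgv6 Trdv4 cells than in the other KO cells and none was higher, with a median of −3.04. Il4, the cytokine that marks these γδ NKT-type cells, stood at 2.9 and 1.2 CPM against 71.6 and 28.5 CPM (−4.62, SE 0.61, adjusted p = 0.0064). Izumo1r (−3.76), Slamf6 (−3.44) and Sh2d1a, a SLAM adaptor (−3.04), were lower too. Zbtb16 itself did not pass (369 and 368 CPM against 480 and 363 CPM, adjusted p = 0.41). Type 1 and cytotoxic genes were lower as well, 13 of 23 against 1 higher, with Nkg7 (−2.70), Xcl1 (−2.89), Klrd1 (−3.08) and Tbx21, which encodes T-bet (−1.63), among the lower ones. The lowest of the named genes included Zfp536, A330093E20Rik, Epha3, Kirrel3, Chn2, Ntrk3, Ralyl, Akap6 and 2600014E21Rik, each between −4.83 and −4.16.

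Among the transcription factors 11 of 31 were higher against 8 lower. Maf stood at 1096 and 1066 CPM in KO Trgv6 Trdv4 cells against 633 and 817 CPM in the other KO cells (0.59, SE 0.13, adjusted p = 0.020), Clnk was higher by 0.98 and Blk by 0.74. Il17a stood at 157 and 118 CPM against 56.5 and 78.6 CPM (1.04, SE 0.21, adjusted p = 0.018). The chosen and the other cells come from the same libraries, a pairing for which the main fit has no term. There Il23r, Il1r1 and Scart1 did not pass (adjusted p = 0.22, 0.12 and 0.051). With the pools as a replicate block they did (0.83, 0.88 and 0.57, adjusted p = 0.027, 0.041 and 0.018). That block is a term for the pool, shared by KO and WT, and does not pair the sums within each library. Under that block Dlgap1, Klrd1, Ntrk3, Epha3, A330093E20Rik and 2600014E21Rik lost their call (adjusted p = 0.062 to 0.14). Zeb2, a transcriptional repressor, was higher by 1.14, Rgs1, a brake on G protein signals, by 1.01, Myo16, an unconventional myosin, by 1.07 and Plek, the kinase C substrate pleckstrin, by 1.07. Of 26 cytokine receptors 3 were higher (Il18rap, Il2ra and Il4ra) and 8 lower, and of 27 chemokine receptor and egress genes 3 were higher (Ccr2, Cxcr6 and Gpr183) and 10 lower, among them Ccr7, S1pr1 and Klf2, which did not pass with the block. The surface and partner list had 9 higher and 5 lower genes of 28, and 4 of 17 glycolysis and lipid uptake genes (Hk1, Eno1, Pkm and Plin2) were higher and none lower. With the block the higher members became 10 cytokine receptors, 8 chemokine receptor and egress genes and 20 surface and partner genes. Over all 12994 genes that fit called 1030 higher and 1538 lower, beside 627 and 1321 in the main fit. The named genes with the largest rise were Tmeff2 (1.29), Dlgap1 (1.21), Fmn1 (1.15), Csgalnact1 (1.14), Havcr2 (1.10), Tmem163 (1.08) and Slc15a3 (1.08). Without WT library 1, 500 genes passed and 4 of the 20 named genes did, and without WT library 2 these were 491 and 4.

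The other KO cells are not free of cells like these. Among them 1603 of 3763 cells (42.6%) and 2481 of 3931 cells (63.1%) held UMIs of 1 of the segments, against 271 of 5606 (4.83%) and 358 of 6274 (5.71%) of the other WT cells. KO cells with Trdv4 alone resembled the chosen cells, with Scart1 at 2906 and 2911 CPM and Maf at 980 and 1025 CPM. WT cells with Trdv4 alone had Scart1 at 444 and 452 CPM. Against KO cells with neither segment but another Trgv segment, where Scart1 stood at 853 and 1232 CPM and Il23r at 39.9 and 130 CPM, the differences were larger. With those as the comparison Scart1 was higher by 1.61 (adjusted p = 7.97e-05), Il23r by 3.29 (adjusted p = 0.015), Clnk by 3.67 and Maf by 1.45, and 3040 genes were higher and 2897 lower, without the excess of lower genes seen against all other KO cells.

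Between KO and WT Trgv6 Trdv4 cells few genes of the γδT17 program passed the test. Maf stood at 1096 and 1066 CPM in KO and 875 and 757 CPM in WT (log2 difference 0.44, SE 0.15, adjusted p = 0.27), without overlap but short of the threshold. Scart1 stood at 3160 and 2899 CPM against 2125 and 2710 CPM (0.35, SE 0.17) and Blk at 1346 and 1199 CPM against 763 and 1140 CPM (0.43, SE 0.21). None of these passed, which does not show that the levels were equal. Il23r (628 and 883 CPM against 973 and 1112 CPM) and Il7r (1143 and 1302 CPM against 1367 and 1723 CPM) were numerically lower in KO and did not pass either. Il17a was read at 157 and 118 CPM in KO and 23.4 and 7.1 CPM in WT (3.30, SE 0.61), and missed the threshold at an adjusted p of 0.071.

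In this comparison 35 of 12994 genes were higher (0.269%) and 43 lower (0.331%) in KO. DESeq2 called 156 higher and 387 lower, the fit with the pools as a replicate block called 69 higher and 113 lower, and 1 or 0 genes passed without WT library 1 or 2. With only the cells that held at least 2 UMIs of each segment, 22 in WT, no gene passed (1122 at an unadjusted p below 0.05), and without the cells with 1 UMI of each, 9 genes were higher and 18 lower, 25 of them among the 78. The median over all genes was 0.13 in the main scaling and −0.01 in DESeq2, a shift to hold against the changes below.

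Among the genes that were higher in KO Trgv6 Trdv4 cells, several had next to no transcript in WT. Myo16 stood at 188 and 159 CPM in KO and had no UMI in either WT library, a level at least 28.3-fold higher when the WT floor is set at 3 UMIs over both libraries. Plek stood at 74.4 and 63.6 CPM against 0 UMIs (at least 11.3-fold) and Gpr55, a lysophospholipid receptor, at 47.4 and 40.9 CPM against 0 UMIs (at least 7.22-fold). Dlgap1 had no UMI in WT either (at least 13.2-fold), but with 109 and 57.3 CPM in KO it did not pass (adjusted p = 0.14). Zeb2 stood at 488 and 265 CPM against 28.1 and 28.4 CPM (log2 difference 3.75, SE 0.56, adjusted p = 0.045), and KO library 1 stood well above KO library 2. Slc15a3, a peptide and histidine transporter, stood at 165 and 134 CPM against 4.68 and 14.2 CPM (3.91, SE 0.53). Chad was read from 2 UMIs in WT, and its ratio of 6.46 to 193 (95% counting interval) is wide.

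Rgs1 stood in KO at 489 and 340 CPM against 103 and 103 CPM (2.03, SE 0.27, adjusted p = 0.022). Icos, the inducible costimulator, stood at 676 and 550 CPM against 131 and 266 CPM (1.60, SE 0.24, adjusted p = 0.034). Itgae, the αE integrin CD103, stood at 508 and 560 CPM against 140 and 252 CPM (1.43, SE 0.21, adjusted p = 0.027). Ahr, a ligand-activated transcription factor, stood at 114 and 92.0 CPM against 37.4 and 24.9 CPM (1.79, SE 0.28, adjusted p = 0.033). KO and WT libraries did not overlap in these 4 called genes. The share of all genes without overlap in these sums was not taken, so this is a description only. Atg7 of the autophagy pathway was higher by 2.06, Aim2, a sensor of cytosolic DNA, by 1.67, and Bcl2a1b, a survival gene of the BCL2 family, by 1.18. The named genes Nucb2 (2.96), Ece1 (2.68) and Itm2c (1.99) complete this side. Without the cells of 1 UMI each 9 genes were higher in KO, and 7 of the 20 named genes kept their call. Of the lower side Basp1, Serpine2, Plxdc2, Pard3 and Ccr9 were among those 7, so most named higher genes lost theirs.

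No gene that was lower in KO passed in the cells with at least 2 UMIs of each segment. Ifngr1, the ligand-binding chain of the interferon γ receptor, stood at 119 and 119 CPM in KO and 524 and 693 CPM in WT (−2.34, SE 0.13, adjusted p = 0.00045). In the cells with at least 2 UMIs of each it stood at 108 and 110 CPM against 322 and 501 CPM (adjusted p = 0.095), and without the cells of 1 UMI each the difference was −2.40 (adjusted p = 0.00013). Its partner Ifngr2 did not pass (61.2 and 69.6 CPM against 65.5 and 71.0 CPM). Basp1 (15.3 and 17.6 CPM against 136 and 178 CPM, −3.24, SE 0.20), Serpine2, a protease inhibitor (−3.96), Plxdc2 (−3.39), Pard3, a polarity gene (−3.10), and Socs3, a feedback inhibitor of STAT3 signals (−2.61), also passed without the cells of 1 UMI each, and none of them overlapped in the cells with at least 2. There Basp1 stood at 13.9 and 17.01 CPM against 138 and 120 CPM, Serpine2 at 9.10 and 11.3 CPM against 92.1 and 54.5 CPM and Plxdc2 at 10.6 and 7.12 CPM against 92.1 and 65.4 CPM. Pard3 stood at 14.4 and 16.7 CPM against 107 and 98.1 CPM and Socs3 at 18.2 and 21.4 CPM against 61.4 and 120 CPM. The WT side of these values holds 10 and 12 cells, where 1 UMI equals 15.3 and 10.9 CPM. Both subsets are parts of the sums on which the genes were called, so they are no independent evidence. Leaving out the cells of 1 UMI each was chosen after seeing the data.

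For several other genes KO and WT came closer or overlapped in the cells with at least 2 UMIs of each. Ccr9 stood at 48.0 and 35.1 CPM in KO and 538 and 348 CPM in WT (−3.37, SE 0.25, adjusted p = 0.0018), but at 44.1 and 30.0 CPM against 15.3 and 120 CPM in cells with at least 2 UMIs of each, where the libraries overlapped, although it still passed without the cells of 1 UMI each. Gata3 stood at 89.4 and 86.4 CPM against 187 and 195 CPM (−1.10, adjusted p = 0.047), and in those cells at 87.7 and 82.3 CPM against 107 and 120 CPM. Foxp1 (−0.97) stood there at 410 and 405 CPM against 445 and 545 CPM. Fam169b (−3.09 over all cells) stood there at 23.1 and 20.6 CPM against 0 and 65.4 CPM and B630019A10Rik (−3.26) at 18.5 and 11.4 CPM against 0 and 43.6 CPM, and both overlapped. For 2610307P16Rik (−3.03 over all cells) the order turned, with 20.3 and 18.3 CPM in KO above 15.3 and 10.9 CPM in WT (0.85, adjusted p = 0.85). Tcf7 stood at 102 and 124 CPM against 426 and 327 CPM over all cells (−1.69) and at 94.0 and 119 CPM against 138 and 327 CPM in those cells. Of the named genes Scart2 (−3.24 over all cells) overlapped in those cells, at 18.1 and 13.0 CPM in KO against 0 and 240 CPM in WT. Ppm1l (−2.87) stood there at 15.0 and 13.2 CPM against 46.0 and 54.5 CPM. Of the 43 lower genes 26 stood lower in both KO libraries than in both WT ones in these cells (13% of all genes), 14 overlapped and 3 (2610307P16Rik, Dipk2a and Ubash3a, the last without a WT UMI) stood higher in both KO libraries. Of the 35 higher genes 31 stood higher in both KO libraries (41.9% of all genes) and 4 overlapped. These cells are part of the sums on which the genes were called, so the counts are a description only.

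**Figure D4:**
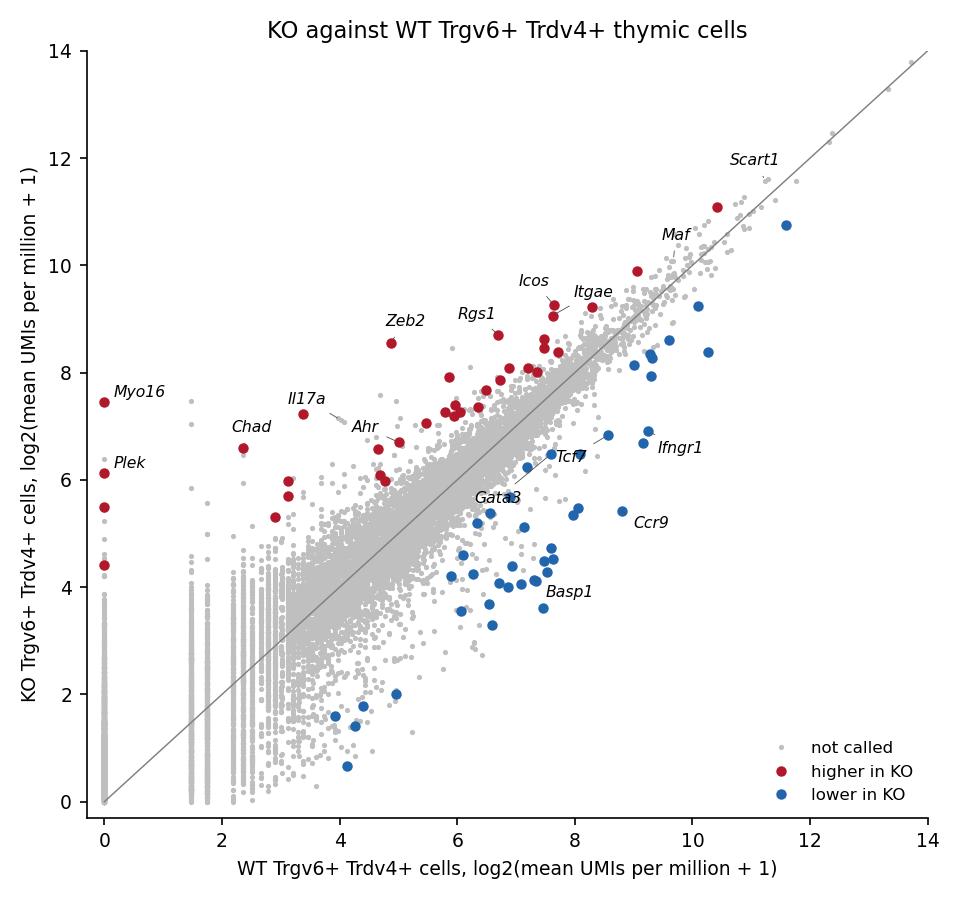
Mean CPM, as log2 of the mean plus 1, of every tested gene in WT (x axis) and KO (y axis) thymic Trgv6 Trdv4 cells, with genes that passed in red (35 higher in KO) and blue (43 lower). Maf and Scart1 lie near the diagonal, Myo16 and Plek stand at 0 on the WT axis, and Ifngr1 and Ccr9 lie below the diagonal.

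The counts by list between KO and WT Trgv6 Trdv4 cells stand beside 0.269% of all genes higher and 0.331% lower, and nothing particular to a list is read from them. Of 31 transcription factors 2 were higher (Ahr, Zeb2) and 2 lower (Gata3, Tcf7), with a median of 0.03. With the pools as a replicate block 3 were higher and 6 lower, Sox4 (−2.50, adjusted p = 0.00064), Lef1 (−2.16, adjusted p = 0.028), Etv5 and Tox2 joining the lower ones and Ikzf3 the higher ones. That block also called Ccr6 (−2.30, adjusted p = 0.0023), Tmeff2 (6.36, adjusted p = 0.039) and Trgc1 (0.64, adjusted p = 0.026), and 1 to 3 further members in each of the receptor, surface, immature thymocyte, cytotoxic, T cell receptor, survival and NKT-type lists. Of 26 cytokine receptors Ifngr1 and Tgfbr1 were lower and none was higher, and of 10 tested IL-17-type cytokines and effectors none passed. Of 28 surface and partner genes Bcl2a1b was higher and Scart2 lower, with a median of 0.25 beside 0.13 over all genes. Among 27 chemokine receptor and egress genes Itgae was higher and Ccr9 lower, and among 31 T cell receptor signal genes Rgs1 and Icos were higher and Themis lower. Ccr9 and Tcf12 were the 2 lower genes of 23 immature thymocyte genes. Trbc1 and Trbc2 were the 2 lower genes of 21 T cell receptor chain and CD3 genes. Bcl2a1b was the 1 higher gene of 15 survival genes, and Icos that of 11 genes of the γδ NKT type. None of 9 genes of Gfi1 and its partners, of 20 cell cycle genes or of 17 glycolysis and lipid uptake genes passed, nor did any of 23 type 1 and cytotoxic genes. The cell cycle genes are read only in cells left after those with both proliferation genes were taken out. The list drawn from earlier whole-library results held 18 genes, of which Myo16 and Slc15a3 were higher and Themis lower, and being chosen on these samples it is no independent evidence.

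The splenic cells chosen by the same rule come from other libraries and gave a second reading of the 78 genes. Of the 35 genes higher in KO thymic cells 28 were higher in both KO splenic sums than in both WT ones, against 32.2% of all genes. Of the 43 lower genes 36 were lower, against 20.7% of all genes. Levels pooled over both libraries differed by at least 1.5 times in that direction for 17 of the 35 and 34 of the 43. The share of all genes at this limit was not taken, so these counts are a description only. Zeb2 stood at 423 and 450 CPM in KO spleen and 50.3 and 47.1 CPM in WT spleen, and Myo16 at 129 and 126 CPM and 0.541 and 2.68 CPM. Ifngr1 stood at 108 and 66.7 CPM in KO spleen and 297 and 433 CPM in WT spleen. Rgs1 overlapped in the spleen, at 30.6 and 25.2 CPM in KO and 36.2 and 23.0 CPM in WT, and Itgae was lower there in both KO libraries, at 75.2 and 75.3 CPM against 110 and 90.4 CPM. Lax1 of the higher genes and Colgalt2 and Nck2 of the lower ones also changed direction there. No label states whether the splenic and thymic libraries came from the same mice. Xist stood at 385 to 871 CPM in the thymic sums and at 0 to 0.535 CPM in the splenic ones. The thymic libraries thus held cells of female mice that the splenic ones lacked, and the donors were not all the same.

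For 194 genes the KO against WT difference was not the same in Trgv6 Trdv4 cells and in the other thymic γδ T cells, with 25 more positive (0.192%) and 169 more negative (1.3%) in the former. The negative side held γδT17 genes, 16 of 28 surface and partner genes against 0 positive, with a median of −2.60 beside 0.11 over all genes. Scart1 differed little between KO and WT Trgv6 Trdv4 cells but stood at 1753 and 2410 CPM in the other KO cells and at 194 and 185 CPM in the other WT cells, which gave an interaction of −3.16 (SE 0.24, adjusted p = 0.0017). Clnk (−5.10), Il23r (−4.30) and Zbtb16 (−2.06) were also more negative, as were Frmd5, Or4c12, Fmn1, Hs6st2, Cryba4, Ablim3, Cdh10, Tdrd9 and Pard3. At 2 or more UMIs of each segment 3 of the 20 named genes of either direction kept their call. With other cells of another Trgv segment 12 of the 20 did. Ifngr1 gave −1.36 (SE 0.17, adjusted p = 0.0095), but at 2 or more UMIs of each segment it gave −0.76 and the call was lost (adjusted p = 0.18). Beside this stands the share of the other KO cells with 1 of the segments, 42.6% and 63.1%. With only cells of another Trgv segment as the others, 59 genes were more positive and 100 more negative, and 66 of the 194 were among them. Scart1 then gave −2.20 (adjusted p = 0.0069), while Clnk (−3.22, adjusted p = 0.19), Il23r (−2.37, adjusted p = 0.38) and Zbtb16 (−2.17, adjusted p = 0.058) no longer passed. The fit with the pools as a replicate block gave 35 more positive and 300 more negative genes, without Frmd5 (adjusted p = 0.083), and no gene passed when either WT library was left out.

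Of 20 cell cycle genes 1, Mcm3, was more positive in Trgv6 Trdv4 cells and none more negative. Cells with UMIs of both Mki67 and Top2a had been left out of both classes. They numbered 297 of 6811 and 257 of 7640 in KO and 1218 of 6855 and 1695 of 8009 in WT. The cell cycle genes are thus read only in the cells that remained, and the part of this choice was not tested. Among the named genes on the positive side Hells, a chromatin remodeler of replicating cells, was at 16.9 and 14.8 CPM in KO and 4.68 and 3.55 CPM, 1 UMI in each library, in WT Trgv6 Trdv4 cells, and at 22.6 and 20.9 CPM and 48.8 and 51.3 CPM in the other cells (interaction 3.15, SE 0.46, adjusted p = 0.017). Mcm3, a subunit of the replicative helicase, gave 2.12, Tipin of the replication fork 1.53 and Cdk6, a G1 kinase, 1.51. Ahr (1.59) and Aim2 (1.62) were on this side too, and in the other cells of both genotypes they stood at 67.5 to 79.7 CPM and at 105 to 116 CPM. Pkp4, Specc1l, Gpd2 and Rassf2 made up the rest of the named genes, and none of the 10 passed at 2 or more UMIs of each segment.

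KO Trgv6 Trdv4 cells of the thymus differed from KO splenic cells of the same rule in 1449 genes that were higher (12.4% of 11716 tested) and 1273 that were lower (10.9%). Of 26 chemokine receptor and egress genes 6 were higher and 5 lower in the thymus, with a median of −0.11 beside 0.00 over all genes. The lower ones were Klf2, S1pr1, S1pr4, Itgb1 and Itgb7. Klf2, a factor of egress and quiescence, stood at 103 and 48.3 CPM in the thymus and 826 and 850 CPM in the spleen (log2 difference −3.49, SE 0.34, adjusted p = 0.00074). S1pr1, the sphingosine 1-phosphate receptor that it controls, stood at 17.7 and 10.3 CPM against 146 and 161 CPM (−3.47, SE 0.18, adjusted p = 9.7e-08). The β1 integrin gene Itgb1 (−2.79) and S1pr4 (−1.41) were lower as well. Ccr9 (48.0 and 35.1 CPM against 2.88 and 4.14 CPM, 3.53) and Itgae (508 and 560 CPM against 75.2 and 75.3 CPM, 2.83) were higher in the thymus, as was Rgs1 (3.89).

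Of 31 transcription factors 8 were higher in the thymus and 4 lower, and of 24 cytokine receptors 8 were higher and 3 lower. Il17a stood at 157 and 118 CPM in the KO thymus and 28.4 and 47.3 CPM in the KO spleen (1.86, SE 0.21, adjusted p = 0.00036). Il23r was higher in the thymus by 1.88, Il7r by 1.03, Il1r1 by 0.71 and Ccr6 by 3.95, and Il22, though at only 3.29 and 2.61 CPM, by 5.20. Of 10 IL-17-type cytokines and effectors tested 4 were higher (Il17a, Il22, Csf2 and Lta) and 3 lower (Tnf, Areg and Tgfb1). Of 28 surface and partner genes 10 were higher and 9 lower. Maf was among the lower factors, at 1096 and 1066 CPM against 1432 and 1450 CPM (−0.42, SE 0.13, adjusted p = 0.034), with Zbtb16 at −0.60. Without the cells of 1 UMI each neither passed (Maf −0.39, adjusted p = 0.056, and Zbtb16 −0.58, adjusted p = 0.11). Scart1 and Blk did not pass (differences −0.07, SE 0.14, and −0.03, SE 0.15). Of 22 type 1 and cytotoxic genes tested, 2 were higher in the thymus (Cd160 and Ctsw) and 13 lower. With the replicate number as a block 11 were lower, and Nkg7 (adjusted p = 0.076) and Klrc1 did not pass. That block pairs thymic and splenic pools of the same number, which no label links. Ccl5 stood at 2.76 and 2.56 CPM against 76.9 and 84.7 CPM (−4.92), with Gzmb at −3.22 and Tbx21 at −3.59. Ahr (0.94), Icos (0.91), Myo16 (0.45) and Bcl2a1b (1.04) were higher in the thymus, and Zeb2 and Ifngr1 did not pass.

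The named genes of this comparison were Rnf150 (7.03), Chad (6.02), Srgap1, Krt83, Apol7b, Lrrn2, Ly6a, Cysltr2 and Rtp4 on the higher side and Rom1 (−4.49), Nhsl2, Tppp3, Dtx1, Rap1gap2, Stmn2, Adgre5 and Lgals3 (−3.49) on the lower side. With the replicate number as a block Tppp3 and Stmn2 did not pass (adjusted p = 0.053 and 0.059), though no label links the thymic and splenic pools that it pairs. Xist stood at 385 to 871 CPM in the 4 sums of thymic Trgv6 Trdv4 cells and at 0 to 0.535 CPM in the splenic ones, and Ddx3y of the Y chromosome at 23.5 to 70.2 CPM and 86.4 to 95.4 CPM. The sex mix of the mice and the organ cannot be told apart in this comparison. Within the thymus Xist stood at 385 and 871 CPM in KO and 473 and 597 CPM in WT. Ddx3y stood there at 57.6 and 23.5 CPM in KO and 70.2 and 60.4 CPM in WT. The part of the sex mix in the KO against WT differences was not tested. Without splenic KO library 2, 1237 genes passed.

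**Figure D5:**
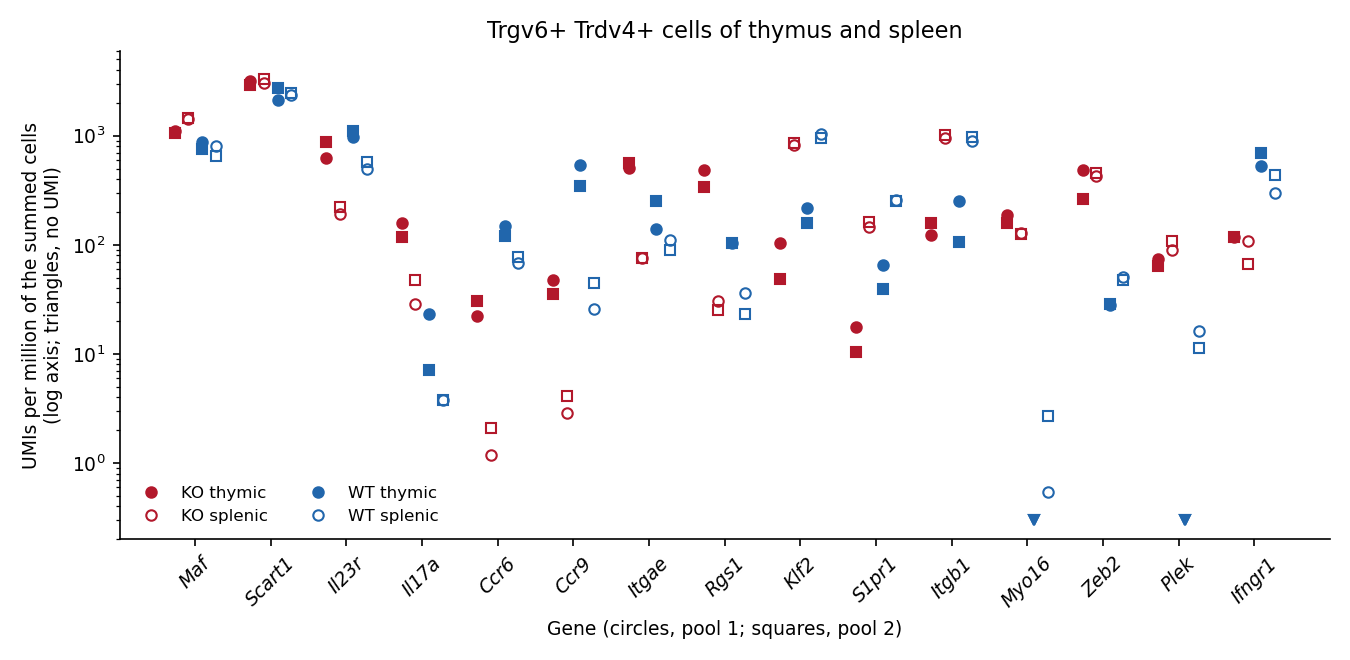
CPM (log axis) of 15 genes in Trgv6 Trdv4 cells of the thymus (filled) and of the spleen (open), KO in red and WT in blue (circles, pool 1; squares, pool 2; triangles at the lower edge, no UMI). Klf2 stood at 103 and 48.3 CPM in the KO thymus and at 826 and 850 CPM in the KO spleen, while Myo16 stood at 188 and 159 CPM and at 129 and 126 CPM.

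Shares of cells showed how widely these transcripts were spread among the Trgv6 Trdv4 cells, with each cell thinned to 3000 UMIs. Maf was found in 93.5% and 93.9% of KO cells and in 93.1% and 85.0% of WT cells, against 6.44% and 5.56% of WT early thymocytes, whose median depth was 5299 and 5070 UMIs before thinning. Without thinning the shares were 98.5% and 98.4% in KO and 100% and 95.0% in WT. Maf was not particular to these cells. In the other thymic γδ T cells it stood at 633 and 817 CPM in KO and 484 and 402 CPM in WT. In WT early thymocytes it stood at 27.4 and 25.1 CPM. Il17a was found in 28.2% and 21.2% of KO cells and in 3.45% and 2.50% of WT cells, which is 1 thinned WT cell in each library, and in 0.0251% and 0% of WT early thymocytes. Before thinning 39.6% and 31.2% of KO and 9.68% and 5% of WT cells held an Il17a UMI. Myo16 was found in 36.1% and 32.0% of thinned KO cells. Without thinning a Myo16 UMI was found in 52.2% and 48.9% of KO cells and in 0 of 31 and 0 of 40 WT cells, which allows shares of cells with a UMI of up to 9.68% and 7.5% and sets no limit on cells that express the gene. The Myo16 share in the KO early thymocytes was 2.92% and 1.32%. Zeb2 was found in 60.8% and 44.5% of KO and 3.45% and 5% of WT cells, and in 43.4% and 40.9% of WT early thymocytes. No cells known to lack Zeb2 were measured, so these shares have no background to be read against.

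Promoters were searched for AATCAC, the core of the GFI1 recognition sequence, on both strands (GTGATT on the other), from 250 bases before to 50 after the start of each gene in RefSeq. The motif was present in 2 of 27 genes with a promoter in the table among those higher in KO Trgv6 Trdv4 cells (7.41%, Aim2 and Chsy1). It was present in 2 of 30 among those lower (6.67%, Foxp1 and Tgfbr1), beside 10.03% of 10147 tested genes and 10.37% of all 32851 promoters. The shares lay near the background, and a match or its absence in this window says nothing of binding.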

How the data were processed

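Single-cell 3′ RNA libraries of sorted thymic γδ T cells, splenic γδ T cells and early thymocytes were used, with 2 KO and 2 WT libraries each. The deposited files hold raw counts, whole UMI counts per gene and cell, which the authors made with Cell Ranger 8.0.1 on the mouse genome GRCm39 (both named in the submitters' processing notes) and split by hashtag antibody. Each library took its genotype from its own label. No doublet caller was run here on the split matrices.

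Cells with fewer than 500 UMIs were to be dropped, and none was. UMIs of the cells chosen and of the other non-cycling cells were summed per library. The sums entered edgeR's quasi-likelihood test (TMM scaling, Benjamini-Hochberg adjustment, threshold 0.05), with all 8 thymic sums in one fit for the thymic comparisons and the Trgv6 Trdv4 sums of both organs for the last. Of 33696 genes, 9548 ribosomal, mitochondrial and Gm genes and the 4 genes of the rule were left out, and edgeR's filter on low counts was applied. All log2 differences and adjusted p-values come from these fits, with 2 sums per group. The sums of chosen and other cells of a library are paired, and the main fit has no term for this pairing. The block on the pool is shared by KO and WT and is not a term for each library. DESeq2, other scaling, no filter, other cell rules, a block on the pool and each library left out in turn were alternatives. The script was tested on simulated data.

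KO and WT of 1 pool shared a droplet run, and their deviations correlated at r = 0.116 in Trgv6 Trdv4 cells and r = 0.221 in the other cells over 7211 genes above 20 CPM. Named genes were the 10 most positive and 10 most negative called genes of each comparison with at least 50 CPM in the higher group and the same direction in both pools, plus members of 15 program lists (314 genes). Markers of other cells came from 11 lists. Members and lists were chosen with earlier results of these data known. Exact binomial intervals (95%) and the 3-count floors cover counting error only. Depth was 42379087 to 71745715 UMIs per thymic library. R 4.3.3, edgeR 4.0.16, limma 3.58.1, DESeq2 1.42.0, Python 3.11.15, numpy 2.4.6, scipy 1.17.1, pandas 2.3.3 and matplotlib 3.10.9 were used. V segments came from a GENCODE annotation of GRCm38 and promoters from RefSeq (GRCm38.p6). Values of a few genes of the lists are not reported here.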

Additional observations from a re-analysis of the deposited data

Results flagged for a closer look

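The KO against WT difference was not the same in Trgv6 Trdv4 cells and in the other thymic γδ T cells for 194 genes, by the interaction term of the edgeR fit. Among the named genes the interaction was positive for Hells (3.15), Mcm3 (2.12), Pkp4 (2.07), Aim2 (1.62), Ahr (1.59), Specc1l (1.58), Tipin (1.53), Cdk6 (1.51), Gpd2 (1.45) and Rassf2 (1.35). It was negative for Frmd5 (−6.26), Or4c12 (−5.97), Fmn1 (−5.77), Hs6st2 (−5.15), Clnk (−5.10), Cryba4 (−4.92), Ablim3 (−4.85), Pard3 (−4.62), Cdh10 (−4.61) and Tdrd9 (−4.59). Beside these stand the 42.6% and 63.1% of the other KO cells that held 1 of the V segments, and the part of that mixture was not tested. At 2 or more UMIs of each segment 3 of the 20 named genes kept their call.

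Cells with both segments also appeared among KO early thymocytes, 4 of 7031 in library 1 and 3 of 7666 in library 2, against 0 of 7279 and 0 of 7618 in WT. The zeros allow WT shares of up to 0.0412% and 0.0394%, taken as 3 cells of the total, which lie inside the exact 95% KO intervals of 0.0155 to 0.146% and 0.00807 to 0.114%, and after thinning to 3000 UMIs 0 and 2 KO cells were left, so these counts do not separate KO from WT in either library.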

How the results depend on the processing

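Counts of called genes moved by over 1.5 times as follows. For KO Trgv6 Trdv4 cells against other KO cells, 1948 genes became 5812 with others lacking both segments, 5937 with others of another Trgv segment and 464 with KO sums alone. For KO against WT Trgv6 Trdv4 cells, 78 became 543 with DESeq2, 226 without the low-count filter, 182 with the replicate block (all 78 among them), 0 at 2 or more UMIs of each segment, 27 without cells of 1 UMI each (an alternative chosen after seeing the data), 263 with these sums alone and 38 with KO thinned to the WT cell number. The interaction moved from 194 to 623 with DESeq2, 335 with the replicate block and 42 at 2 or more UMIs. WT Trgv6 Trdv4 cells against others moved from 1054 to 1586 with DESeq2 and 578 at 2 or more UMIs. Leaving out each library in turn gave 491 to 4020, 0 to 461, 0 to 566 and 0 to 1482 genes in these comparisons, and 1237 to 3049 between thymus and spleen. The low ends came from leaving out a WT library, or splenic KO library 2. The cause of these moves was not tested, except that fewer cells or libraries enter some fits.

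At 2 or more UMIs the KO against WT differences of 2610307P16Rik (0.85) and Igfbp4 (1.03) reversed. Over single genes and alternatives, 2877 values kept direction and side of the threshold, 630 lost the call, 101 gained it, 2 called values reversed and 17 values that passed in neither fit changed sign. The KO share, 42.8% on average, was 53.4% of cells with any Trgv UMI, 20.5% at 2 or more UMIs, 47.7% by Trgv6 alone and 28.6% after thinning, and per library 40.4% to 45.2%. The WT share, 0.476%, was 0.573%, 0.148%, 1.99% and 0.262%, and per library 0.452% to 0.499%. The share of KO cells with a Maf UMI was 93.7% thinned and 98.4% as deposited. The number of cells limits the WT side, since 71 cells gave 213680 and 281524 UMIs and genes under about 10 CPM rest on a few UMIs there.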
